A study of Mus musculus with 56 samples.

Results

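The linker histone genes H1f0, H1f2 and H1f4 were followed through the day in the anterior hypothalamus of mice fed at opposite phases of the light cycle. They are 3 of the 17564 genes in the expression table. H1f0 was chosen by its measured values, since the difference of its fitted 24-h rhythm between the feeding regimens was one of the largest in these data, and H1f2 and H1f4 were added as relatives of the same family. The rhythm of H1f0, and its differences between regimens at single time points, are therefore given as a description without a test.

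RNA was sequenced from 56 female C57BL/6J mice of 9 weeks, an inbred strain for which the labels name no engineered allele. After acclimation on free access to chow, 28 mice had food in the light period only (day time-restricted feeding, DRF) and 28 in the dark period only (night time-restricted feeding, NRF), for 7 days under a 12-h light and 12-h dark cycle. In zeitgeber time (ZT), lights came on at ZT0 and went off at ZT12, so DRF mice ate from ZT0 to ZT12 and NRF mice from ZT12 to ZT24. From ZT0 to ZT24, 4 mice of each regimen were killed every 4 h (7 time points), so each time point is a separate set of animals and there was no group with food at all times.

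Linker histones bind the DNA where it enters and leaves the nucleosome and help fold nucleosomes into compact chromatin. H1f0 encodes H1.0, the replacement variant known from cells that have stopped dividing, and its messenger carries a poly(A) tail and is made outside S phase. H1f2 (older name Hist1h1c, protein H1.2) and H1f4 (older name Hist1h1e, protein H1.4) lie in the large histone cluster. They belong to the replication-dependent class, whose messengers classically end in a stem-loop instead of a poly(A) tail, although H1.2 and H1.4 are also found in resting cells.

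The sequence before the RefSeq start of each gene was searched for promoter elements. H1f0 (Gene ID 14958) is a gene of 1 exon at chr15:79028450-79030504 on the plus strand of GRCm38. H1f2 (Gene ID 50708) has 1 exon at chr13:23738808-23740367 on the plus strand, and H1f4 (Gene ID 50709) has 1 exon at chr13:23620629-23622558 on the minus strand. The last 130 bases before the RefSeq start of each gene (GRCm38.p6, all 3 matched) are printed 5′ to 3′ on the gene's strand. H1f2 and H1f4 share promoter elements there that were not found in this window of H1f0. For H1f0 the RefSeq start (79028212) lies before the GENCODE start given above (79028450), and the bases between them were not searched. Whether H1f0 holds these elements nearer its GENCODE start was not tested. Capitals mark the H1 box AAACACA, the CCAAT box and the TATA box TATAAA.
H1f0 chr15:79028082-79028211: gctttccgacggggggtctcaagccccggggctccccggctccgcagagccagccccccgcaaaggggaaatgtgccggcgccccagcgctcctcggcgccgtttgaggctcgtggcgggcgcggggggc
H1f2 chr13:23738677-23738806: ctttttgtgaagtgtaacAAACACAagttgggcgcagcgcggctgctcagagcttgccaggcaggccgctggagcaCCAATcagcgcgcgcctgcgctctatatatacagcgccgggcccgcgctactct
H1f4 chr13:23622559-23622688: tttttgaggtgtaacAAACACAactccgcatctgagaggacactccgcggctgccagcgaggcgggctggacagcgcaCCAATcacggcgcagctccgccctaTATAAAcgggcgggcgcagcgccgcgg

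The H1 box began 112 bases before the start of H1f2 and 115 bases before that of H1f4, and the CCAAT box began 54 and 52 bases before it. An H1 box was present on either strand in 6.25% of the 32851 RefSeq promoters searched over 250 bases, and a CCAAT box in 33.8%. Both on the gene's strand occurred in 208 promoters (0.633%). TATAAA was found in H1f4 and in 12.4% of all promoters. Only these exact letters were searched, so the run tatatata in the printed stretch of H1f2 was not counted. The longest run shared by the 250 bases of H1f2 and H1f4 was 15 bases, gtgtaacAAACACAa, around the H1 box, whereas H1f0 shared at most 9 bases with either. The GC box GGGCGG, searched on both strands and present in 32.7% of promoters, occurred only in H1f4. The E-box CACGTG (6.02% of promoters) occurred in none of the 3 windows, which says only that these letters were not there. H1f0 was the GC-richest, with 74.4% G and C over 250 bases against 50.4% in H1f2 and 52.4% in H1f4.

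The annotated transcripts were searched for the histone stem-loop by its 16-base consensus on the transcript strand. It was found once in H1f2 and once in H1f4 and not in H1f0, and in 89 of 55450 annotated genes (0.161%). It was not found either in the annotated transcripts of H1f1, H1f5 and H1f10 (741, 743 and 1217 bases). The class of a gene was therefore not read from this search. The stem-loop is printed in capitals with 5 bases on each side, since these libraries were made from RNA captured by its poly(A) tail.
H1f2 chr13:23739512-23739527: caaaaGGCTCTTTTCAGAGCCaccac
H1f4 chr13:23621782-23621797: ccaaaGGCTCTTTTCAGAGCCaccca

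The 16 bases of the stem-loop were identical in the pair. The RefSeq transcripts stop 4 bases (H1f2) and 5 bases (H1f4) beyond it. The GENCODE models, whose lengths of 1560 and 1930 bases underlie the deposited values, run on for another 840 and 1153 bases. The table holds 1 value per gene and mouse, so reads before and after the stem-loop could not be told apart, and how far the poly(A) capture set the levels of H1f2 and H1f4 was not tested.

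The normalised libraries held 29591266 to 34493348 reads, the medians being 30783120 for DRF and 30808272 for NRF. For all 3 genes the deposited values resolved into whole reads in 56 of 56 mice. The counts per mouse were 2388 to 3840 for H1f0 (median 2891), 146 to 394 for H1f2 (median 231.5) and 4 to 45 for H1f4 (median 15), so H1f4 was measured on few reads and most of what follows rests on the other two. Levels are counts per 1000000 reads (CPM), and differences are on the scale of log2(CPM + 1). This scale understates fold changes at low levels, most for H1f4 and to a lesser degree for H1f2. The DRF mice numbered 3 and 4 at ZT16 stood apart in the trend of their values with GC content, with slopes of 0.364 and 0.534 log2 units per 10 points of GC against -0.154 to 0.162 in the other 54 libraries. Unless stated otherwise, values include both.

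Divided by transcript length, H1f0 was the most abundant of the 7 linker histone transcripts analysed here. Its median was 44.9 CPM per kilobase over the 56 mice, with a range of 37.2 to 56.6. H1f10 (H1.10, another replacement variant) followed with 20.9 (14.6 to 28.2), H1f2 with 4.82 (3.06 to 8.23) and H1f4 with 0.250 (0.0647 to 0.760). These ranges did not overlap, so the order held in all mice. How far the poly(A) capture set this order was not tested. H1f5, H1f1 and the oocyte variant H1f8 gave 50, 31 and 19 reads in all 56 mice together and were not tested. H1f0 made up a median of 62.8% of the CPM per kilobase of these 7 genes in a mouse, H1f10 30.2%, H1f2 6.77% and H1f4 0.361%.

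**Figure D1:**
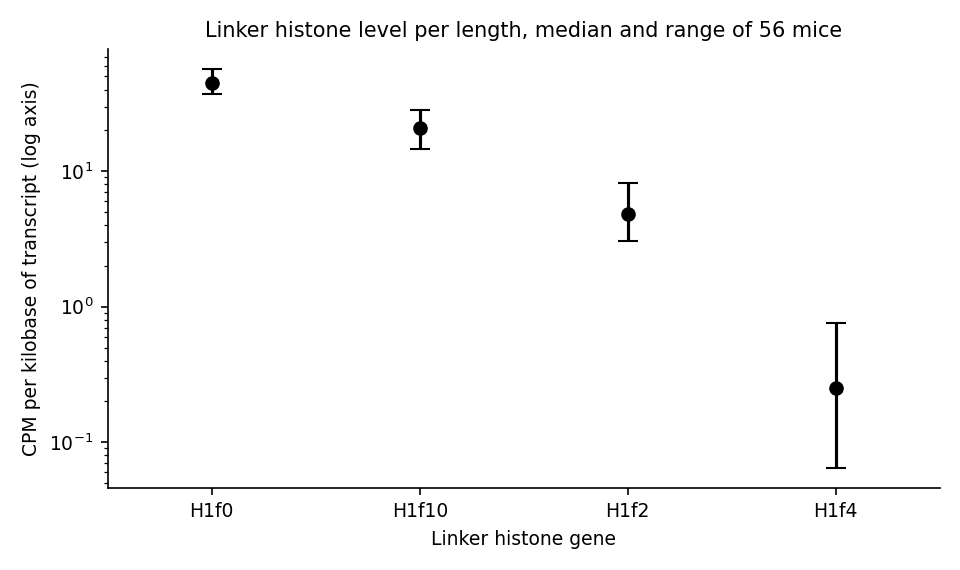
Level of 4 linker histone transcripts in libraries selected by poly(A) tail, in CPM per kilobase of transcript (log axis). Points are the median and bars the lowest and highest of 56 mice. H1f0 at 44.9 and H1f10 at 20.9 lie above H1f2 at 4.82, and H1f4 at 0.250 lies far below the others.

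H1f0 was high in the light period in NRF mice and high from late in the dark period to lights-on in DRF mice. At ZT0 its level in DRF mice was 106, 96.5, 92.5 and 103 CPM, and in NRF mice 92.0, 94.0, 90.5 and 96.9 CPM. At ZT4 the DRF mice had 80.5, 92.4, 86.4 and 90.1 CPM, and the NRF mice 106, 116, 109.6 and 102 CPM. All NRF mice were thus above all DRF mice 4 h after lights-on, having overlapped with them at ZT0. At ZT8 the levels were 98.3, 93.6, 82.4 and 88.2 CPM in DRF and 111, 116, 106 and 111 CPM in NRF, again without overlap. At ZT12 they were 86.7, 87.4, 92.1 and 85.4 CPM in DRF and 106, 101, 100.1 and 84.2 CPM in NRF. The NRF mouse with 84.2 CPM lay below all DRF mice and the other three above them. At ZT16 DRF mice had 81.2, 85.7, 91.8 and 95.4 CPM, the last pair being the libraries that stood apart, and NRF mice had 78.4, 83.3, 83.3 and 78.4 CPM. At ZT20 the order was turned round, with 97.7, 108, 103 and 90.1 CPM in DRF and 78.4, 81.0, 76.3 and 78.0 CPM in NRF. At ZT24 DRF mice had 113, 111, 96.6 and 105 CPM and NRF mice 90.9, 81.7, 81.9 and 83.8 CPM, so the DRF mice were the higher at both of these times. In bulk tissue, fewer cells that hold a transcript and less of it per cell cannot be told apart.

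**Figure D2:**
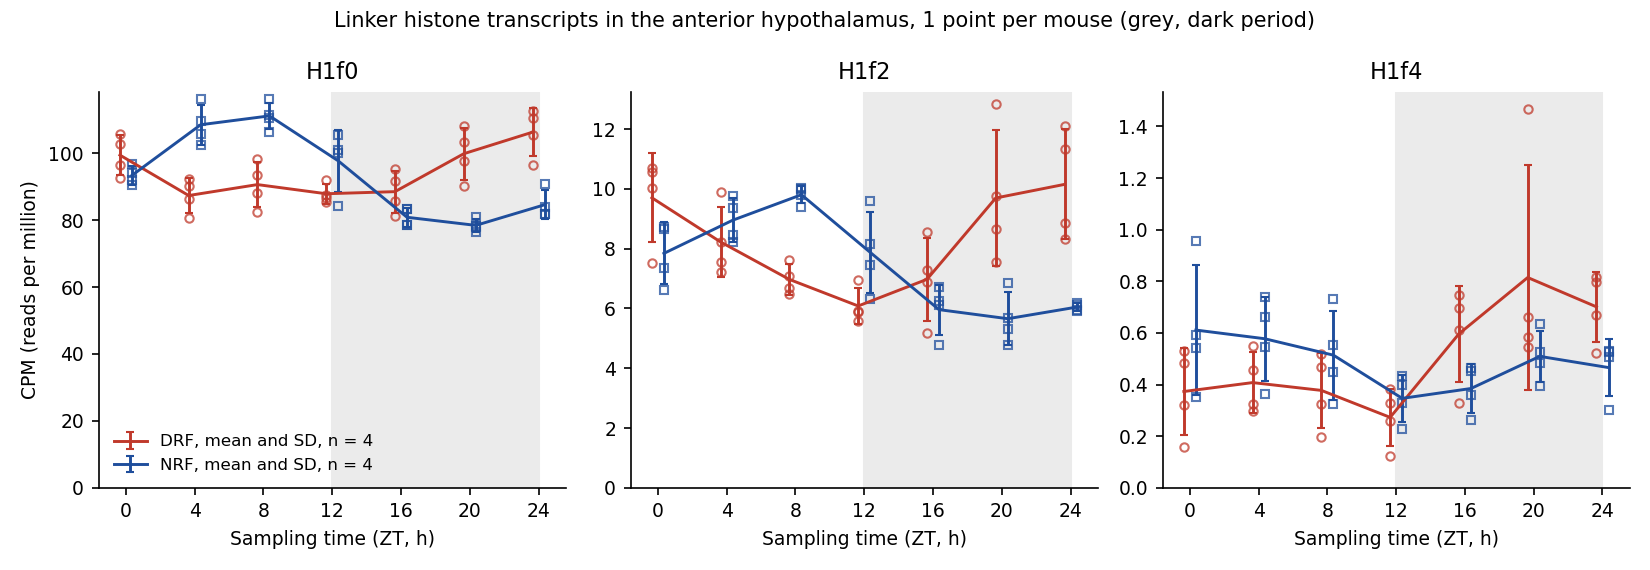
Level of H1f0, H1f2 and H1f4 in CPM (vertical axes, from 0) against sampling time, with 1 open point per mouse and lines through the means with SD (n = 4; DRF circles, NRF squares; the dark period is grey). H1f0 and H1f2 run above DRF in NRF mice at ZT8 and below DRF at ZT20 and ZT24, while the H1f4 points of the regimens overlap at every time.

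The lowest group mean of H1f0 was 78.4 ± 1.91 CPM (SD, n = 4), in NRF at ZT20, and the highest was 111 ± 4.0 CPM, in NRF at ZT8, a ratio of 1.42. In DRF the group means ran from 87.3 ± 5.19 CPM at ZT4 to 106 ± 7.18 CPM at ZT24, a ratio of 1.22. The day in DRF was thus flatter and placed elsewhere. DRF and NRF mice did not overlap at ZT4, ZT8, ZT20 and ZT24, where the same held for 14.1%, 9.72%, 8.2% and 7.72% of 16063 transcripts. At ZT0, ZT12 and ZT16, where H1f0 did overlap, the share was 14.5%, 6.31% and 7.94%. DRF exceeded NRF by 1.27-fold at ZT20 and 1.26-fold at ZT24, and NRF exceeded DRF by 1.24-fold at ZT4 and 1.23-fold at ZT8.

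A 24-h cosine fitted to H1f0 had an amplitude of 0.271 ± 0.0230 (SE, 28 mice) in NRF and of 0.115 ± 0.0278 in DRF, measured as log2(CPM + 1), or peak-to-trough folds of 1.46 and 1.17. It peaked at ZT6.85 ± 0.290 h (SE) in NRF and at ZT22.5 ± 1.0 h in DRF. The cosine took up 84.8% of the variance among NRF mice and 41.1% among DRF mice. The difference between the fitted curves had an amplitude of 0.351 (0.348 without the DRF mice numbered 3 and 4 at ZT16), against a median of 0.0918 over all 16063 transcripts. By the F statistic of that difference H1f0 stood at rank 2, and by the size of the difference alone at rank 209. Its spread between mice was small, with a residual SD of 0.0850 against 0.184 for H1f2. These values chose the gene and support nothing further. The rhythm of 1791 transcripts (11.1%) differed between the regimens at an adjusted p-value under 0.05 (limma, F test, Benjamini-Hochberg).

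H1f2, added as a relative of H1f0 with earlier results of these data known, ran parallel to it with wider swings. At ZT0 its level was 10.7, 7.51, 10.6 and 10.02 CPM in DRF mice and 7.36, 8.73, 6.61 and 8.66 CPM in NRF mice. At ZT4 DRF mice had 8.21, 9.89, 7.56 and 7.23 CPM and NRF mice 9.77, 8.24, 9.35 and 8.45 CPM. The regimens overlapped at both times. At ZT8 DRF mice had 7.63, 6.48, 7.09 and 6.69 CPM and NRF mice 9.997, 10.03, 9.40 and 9.79 CPM. All NRF mice were above all DRF mice there, as for H1f0. At ZT12 the levels were 6.94, 5.57, 5.89 and 5.93 CPM in DRF and 9.59, 8.15, 7.44 and 6.33 CPM in NRF, and at ZT16 they were 5.18, 7.29, 6.88 and 8.55 CPM in DRF and 6.71, 6.25, 6.11 and 4.77 CPM in NRF. Both sets overlapped, and DRF was at its lowest at ZT12. At ZT20 DRF mice had 8.65, 12.8, 9.75 and 7.54 CPM and NRF mice 5.32, 5.69, 4.78 and 6.85 CPM. At ZT24 DRF mice had 12.1, 11.3, 8.34 and 8.84 CPM and NRF mice 5.94, 6.18, 5.92 and 6.12 CPM. Every DRF mouse lay above every NRF mouse at these last times, and the NRF mice at ZT24 lay close together, between 5.92 and 6.18 CPM.

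The rhythm of H1f2 differed between the regimens. The fitted difference had an amplitude of 0.565 on the log2 scale, the size rank 44 of 16063 transcripts, with an adjusted p-value of 6.13e-07 (limma over all 56 mice). Over 12 alternative settings the adjusted p-value lay between 5.09e-07 and 0.00117, the highest being without the mice numbered 3. Without the libraries that stood apart at ZT16 the amplitude was 0.560. The cosine had an amplitude of 0.365 ± 0.0476 (SE, 28 mice) with a peak at ZT6.90 ± 0.446 h in NRF, and an amplitude of 0.311 ± 0.0510 with a peak at ZT23.3 ± 0.705 h in DRF. These amplitudes correspond to peak-to-trough folds of 1.66 and 1.54 in CPM + 1, which are smaller than folds in CPM. The ratio of the highest to the lowest group mean CPM was 1.73 in NRF and 1.67 in DRF. The amplitudes of H1f2 differed by less than their combined error, with peak times 7.55 h apart.

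Within each regimen, the combined test of JTK_CYCLE and Lomb-Scargle periodogram called H1f2 rhythmic in NRF (adjusted p = 4.14e-06) and in DRF (adjusted p = 0.00264). The background was 27.7% of 16245 transcripts in NRF and 0.813% in DRF, so that H1f2 was 1 of only 132 transcripts called in DRF. The call in NRF was kept in 10 of 11 alternatives. The call in DRF was lost without the mice numbered 1 (adjusted p = 0.117), 3 (adjusted p = 0.275) or 4 (adjusted p = 0.116), and without ZT24 (adjusted p = 0.0502), while the 24-h cosine in limma gave an adjusted p-value of 2.41e-05 for it.

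At single time points H1f2 was higher in DRF at ZT20, by 0.67 ± 0.127 on the log2 scale (SE, limma adjusted p = 0.00286), a 1.71-fold ratio of mean CPM. It was also higher in DRF at ZT24, by 0.65 ± 0.127 (limma adjusted p = 0.00807), a 1.68-fold ratio. At these times 1.14% and 0.317% of all transcripts passed the test. From ZT0 to ZT16 the share was 4.59%, 3.94%, 0.137%, 1.51% and 20.1%. These shares rested on the libraries that stood apart at ZT16, without which they were 7.31%, 6.52%, 0.778%, 4.09% and 0.193%, and 2.28% at ZT20 and 0.635% at ZT24. At ZT8 the level was 1.41-fold higher in NRF, a difference of -0.44 ± 0.127 for DRF minus NRF that did not pass (limma adjusted p = 0.135). The differences at ZT0 (0.27), ZT4 (-0.12), ZT12 (-0.32) and ZT16 (0.19, and 0.05 without the libraries that stood apart) did not pass either. With 3 mice per group the calls were not stable, although the differences stayed at 0.54 to 0.85 at ZT20 and 0.56 to 0.72 at ZT24. Without the mice numbered 2 or 3 none of the time points passed (adjusted p = 0.0727 and 0.186 in limma at ZT20), and at ZT24 the call was also lost without the mice numbered 1 (limma adjusted p = 0.138).

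**Figure D3:**
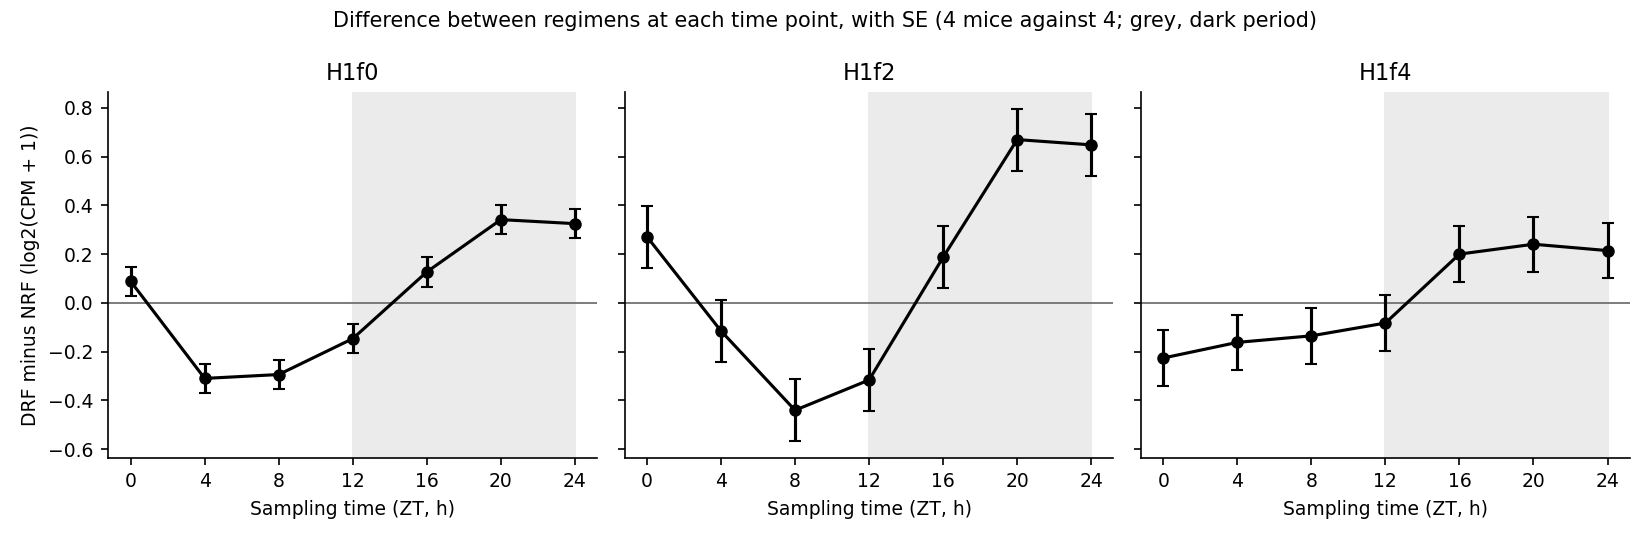
DRF minus NRF on the log2(CPM + 1) scale at each sampling time for H1f0, H1f2 and H1f4, with the SE from limma (4 mice against 4; the dark period is grey). H1f0 and H1f2 are below 0 from ZT4 to ZT12 and above it from ZT16 to ZT24, reaching 0.34 and 0.67 at ZT20; H1f4 turns from below to above 0 between ZT12 and ZT16, with no single time point past the test.

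H1f4 gave no difference that passed. Its levels were between 0.125 and 1.47 CPM in DRF mice and between 0.227 and 0.956 CPM in NRF mice, and the regimens overlapped at all 7 time points. The group means in DRF ran from 0.273 ± 0.111 CPM (SD, n = 4) at ZT12 to 0.815 ± 0.437 CPM at ZT20, where 1 mouse had 1.47 CPM and the other three 0.547 to 0.663 CPM. In NRF they ran from 0.347 ± 0.0905 CPM at ZT12 to 0.611 ± 0.252 CPM at ZT0. The ratio of mean CPM at ZT20 was 1.60 (DRF over NRF), close to that of H1f2, but its log2 difference of 0.24 ± 0.114 had a limma adjusted p-value of 0.335. Its rhythm difference had an amplitude of 0.214 (limma adjusted p = 0.0812, and 0.0570 to 0.462 over 12 alternatives). JTK_CYCLE with Lomb-Scargle gave adjusted p-values of 0.470 in DRF and 0.811 in NRF. In DRF the 24-h cosine in limma alone called it rhythmic (adjusted p = 0.0302), with a peak at ZT20.2 ± 1.08 h. This call was lost in 7 of 12 alternatives, with adjusted p-values of 0.0550 to 0.265, the highest being without the mice numbered 3, and it was lost without the libraries that stood apart at ZT16 (limma adjusted p = 0.0622).

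Feeding time was moved by 12 h between the regimens, and no fitted peak moved as far. H1f0 peaked 8.38 ± 1.04 h (SE) earlier in DRF than in NRF, and H1f2 7.55 ± 0.834 h earlier. Over the alternative settings the DRF peak of H1f0 lay between ZT21.2 (without ZT16) and ZT23.4 (without the mice numbered 3). The intervals below that rest on this peak move with it. Counted from the hour when food became available, H1f0 peaked 18.8 h later in NRF and 22.5 h later in DRF, and H1f2 18.9 h and 23.3 h later. Relative to the meal, the DRF peaks therefore came 3.62 h (H1f0) and 4.45 h (H1f2) after the NRF peaks. In both regimens the fitted peaks of H1f0 and H1f2 fell in the hours without food. They came 6.85 h and 6.90 h after food was removed in NRF and 10.5 h and 11.3 h after it in DRF. The DRF peak of H1f2 (SE 0.705 h) lay within 1 SE of the return of food, so the fit does not place it before food. The highest DRF group means of both genes were at ZT24, when food returned. For H1f4 the fitted peaks were ZT20.2 and ZT2.15 ± 1.48 h, with an amplitude in NRF of only 0.0996 ± 0.0365.

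**Figure D4:**
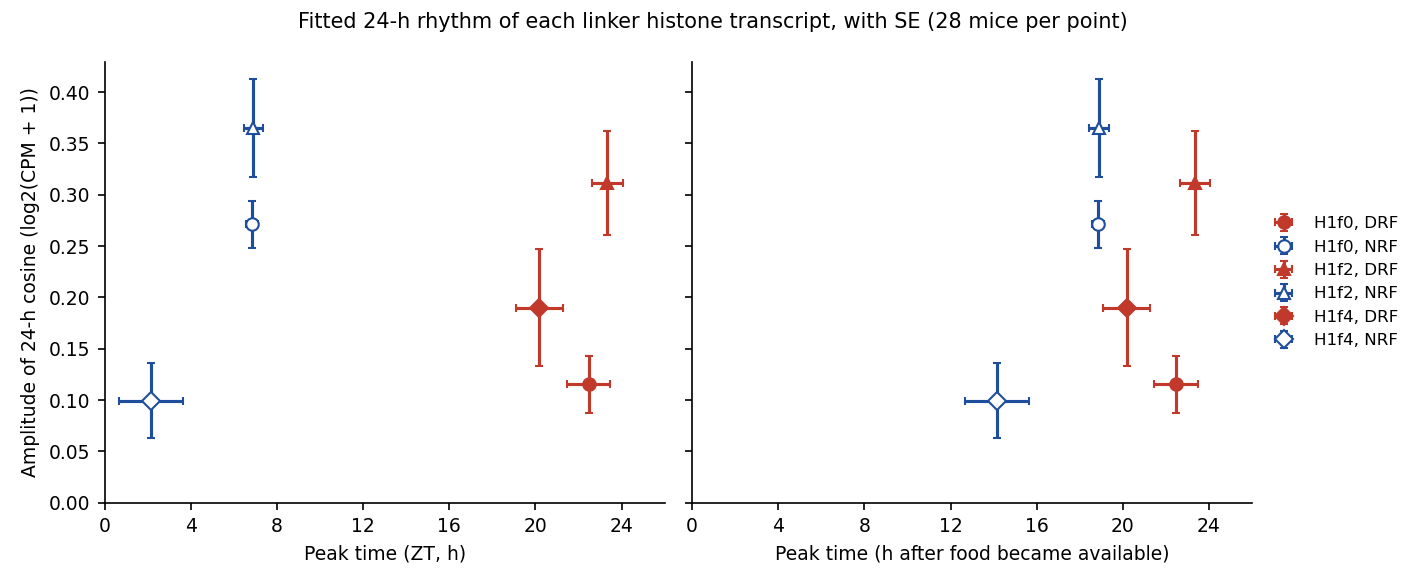
Amplitude of the fitted 24-h cosine (log2(CPM + 1), vertical axis) against its peak time for each gene and regimen, with SE on both axes and 28 mice per point; the left panel counts hours from lights-on and the right panel from the start of food. H1f0 and H1f2 share a peak near ZT6.9 in NRF and lie at ZT22.5 and ZT23.3 in DRF, and the regimens come closer on the right but do not meet.

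Averaged over the day, the amount of each transcript was not shown to differ between the regimens. This contrast weighted all sampling times equally, so the clock time of lights-on, sampled at both ends of the day, counted more than any other. The rhythm that chose H1f0 can therefore enter it, and its result for H1f0 is not independent of that choice. The contrast called 902 transcripts higher in DRF (5.62%), and 1691 in either direction (10.5%). DRF minus NRF was 0.02 ± 0.0227 (SE, limma adjusted p = 0.651) for H1f0 and 0.01 ± 0.0429 (limma adjusted p = 0.943) for H1f4. It was 0.13 ± 0.0480 for H1f2, with an unadjusted p-value of 0.00993 that did not survive adjustment (limma adjusted p = 0.0736, and 0.0575 to 0.657 over 12 alternatives). For H1f0 and H1f4 the sign itself depended on the setting. Without ZT24 the difference was -0.03 for H1f0 and 0.04 for H1f2 (limma adjusted p = 0.657 for H1f2). The means of the fitted cosines were 6.55 in DRF and 6.56 in NRF for H1f0. For H1f2 they were 3.14 in DRF and 3.06 in NRF.

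The levels at ZT0 and at ZT24, the same clock time in separate mice, checked whether a day closed on itself. In NRF mice H1f0 was lower at ZT24 by 0.14 ± 0.0602 on the log2 scale (limma adjusted p = 0.178), from a mean of 93.4 to 84.6 CPM, and 3 of the 4 mice at ZT24 were below all mice at ZT0. H1f2 fell short of the test in the same direction, with 7.84 CPM at ZT0 and 6.04 CPM at ZT24 and all 4 mice at ZT24 below all 4 at ZT0 (limma adjusted p = 0.145). In NRF the mice of these times did not overlap for 21.7% of all transcripts. In DRF mice the differences were 0.09 for H1f0, 0.06 for H1f2 and 0.31 ± 0.114 for H1f4, with limma adjusted p-values of 0.472, 0.885 and 0.175. None of these 6 contrasts passed, where 80 transcripts (0.498%) passed in DRF and 358 (2.23%) in NRF, or 185 (1.15%) and 1097 (6.83%) without the libraries that stood apart at ZT16.

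H1f10, the second linker histone by level, did not pass. Its NRF means rose to 31.4 ± 3.17 CPM (SD, n = 4) at ZT8, near the NRF peak of H1f0, and the lowest was 21.8 ± 2.77 CPM at ZT24. In DRF the highest mean was 29.0 ± 3.77 CPM at ZT16, which was 26.3 CPM without the libraries that stood apart and then below the 28.4 ± 2.0 CPM at ZT4, and the lowest 23.4 ± 4.08 CPM at ZT0. Its rhythm difference of 0.169 did not pass (limma adjusted p = 0.274), and neither rhythm within a regimen passed, with adjusted p-values of 1 in DRF and 0.315 in NRF. H1f2 was thus the 1 gene that passed in the rhythm difference among the 3 tested linker histone genes other than H1f0 (11.1% of all transcripts passed). Since H1f2 was added with earlier results of these data known, its pass may not be independent of that choice.

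Among 14 genes whose products load H1, chaperone it or compete with it on the nucleosome, 4 passed in the rhythm difference (28.6%, against 11.1% of all transcripts), and the median amplitude of the difference was 0.0979 against 0.0918. Averaged over the day, 2 of the 14 were lower in DRF and 0 higher, where 10.5% of all transcripts passed in either direction. Hmgb2, an HMG-box protein that bends DNA, had a fitted peak near those of H1f0 and H1f2 in NRF and before theirs in DRF. JTK_CYCLE with Lomb-Scargle did not call it rhythmic in DRF (adjusted p = 0.730). Its NRF peak was at ZT7.78 with an amplitude of 0.272 and its DRF peak at ZT20.7 with 0.213 (limma adjusted p = 4.57e-05). Hmgn2, which competes with H1 on nucleosomes, peaked at ZT7.37 in NRF and ZT1.73 in DRF (limma adjusted p = 0.00430), and was 0.08 lower in DRF over the day (limma adjusted p = 0.0220). Nasp, a histone chaperone that carries H1, peaked in the dark period in NRF, at ZT19.3 with an amplitude of 0.161, against 0.0588 in DRF (limma adjusted p = 0.00925). Hmgn5 also peaked at night in NRF, at ZT20.4 with an amplitude of 0.275 (limma adjusted p = 0.0330 for the difference). In NRF 6 of the 14 were called rhythmic by JTK_CYCLE with Lomb-Scargle, and in DRF 0 (2 of 14 at an unadjusted p-value under 0.05), where 27.7% and 0.813% of all transcripts were called. By the same test in DRF, 703 of 16245 transcripts had an unadjusted p-value under 0.05.

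Core histones and the histone messenger machinery were counted in the same way, against the 11.1% of all transcripts that passed in the rhythm difference. In that test 4699 of 16063 transcripts had an unadjusted p-value under 0.05 (limma), and the median difference over all transcripts was 0.0918. Of 8 replacement core histones, 2 had an unadjusted p-value under 0.05 (limma), with a median difference of 0.0570, and 1 passed (12.5%). This was H3f3b, a gene for the replacement histone H3.3, with a peak at ZT6.26 and an amplitude of 0.203 in NRF and a peak at ZT0.470 with 0.125 in DRF (limma adjusted p = 0.00731). Of 22 replication-dependent core histone genes that could be tested, 0 passed (limma, adjusted p-value under 0.05), with 2 at an unadjusted p-value under 0.05 and a median difference of 0.0693. Most of these 22 had a mean level under 1 CPM, down to 0.0552 CPM in H4c2, where log2(CPM + 1) leaves little room for an amplitude. The count of 0 and the low median therefore do not show that the class lacks rhythm differences. The pair with the highest levels, H2bc4 and H2bc21, had adjusted p-values of 0.389 and 0.764, although the reads of H2bc4 did not resolve into whole numbers. Whether H1f2 differs from the core genes of its class was not tested. Of 12 genes for the processing of histone messengers, 7 had an unadjusted p-value under 0.05 (limma), with a median difference of 0.120. After adjustment 1 of the 12 passed (8.33%), Eri1, an exonuclease that trims the histone stem-loop. Its peak in NRF was at ZT19.6 with an amplitude of 0.239, against 0.0348 in DRF (limma adjusted p = 0.0119). Slbp, which binds the stem-loop, did not pass (limma adjusted p = 0.0847). Of 9 proliferation genes, 2 had an unadjusted p-value under 0.05 (limma), with a median difference of 0.0832. After adjustment 1 passed, the replication licensing factor Mcm2 (limma adjusted p = 0.0116), with a peak at ZT5.70 in NRF. Mki67 and Top2a, which mark dividing cells, had differences of 0.0972 and 0.0961 that did not pass (limma adjusted p = 0.731 and 0.674). Their mean levels were 0.845 and 0.757 CPM.

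The transcripts with the profile most like that of H1f0, over the 14 means of regimen and time point, were Sat2 (Pearson r = 0.953), Pigz (0.931), Hacl1 (0.925), Spdef (0.923) and Actb, the cytoskeletal actin gene (0.921). All 5 peaked between ZT7.03 and ZT7.85 in NRF and between ZT22.2 and ZT23.4 in DRF. H1f2 came at rank 12 for H1f0 (r = 0.904), and H1f0 at rank 2 for H1f2. The others nearest to H1f2 were Marveld2 (r = 0.913), 1190005I06Rik (0.903), BC034090 (0.881) and the phosphate transporter gene Slc20a2 (0.879). H1f4 was at rank 2894 for H1f0 (r = 0.383). These correlations are across the same 14 means, which share their mice and libraries, and are given as a description.

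**Figure D5:**
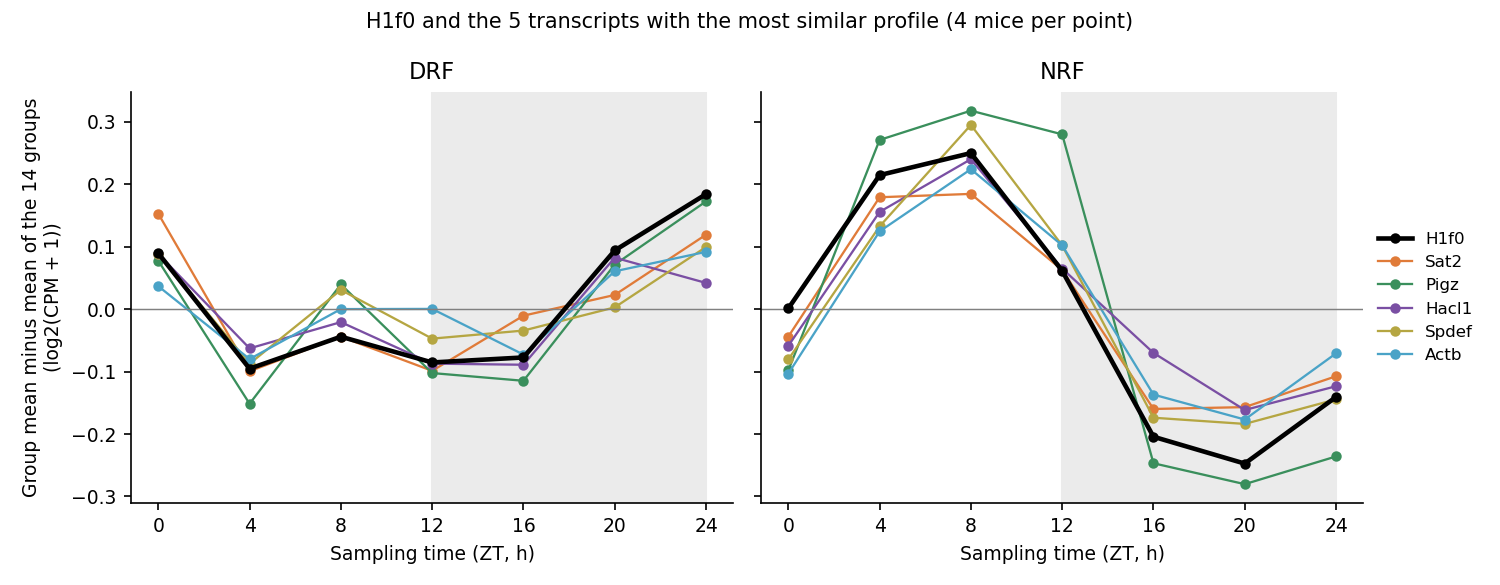
Group mean of H1f0 and of the 5 transcripts most like it, as the difference from the mean of the 14 groups on the log2(CPM + 1) scale, against sampling time in DRF (left) and NRF (right), with 4 mice per point. All 6 curves are highest at ZT8 and below 0 from ZT16 to ZT24 in NRF, and all lie above 0 at ZT20 and ZT24 in DRF.

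Markers of cell types were compared in the same way, again against the 11.1% of all transcripts that passed in the rhythm difference. The background at an unadjusted p-value under 0.05 was again 4699 of 16063 transcripts (limma). The tissue held neurons, astrocytes and the neuropeptide genes of the anterior hypothalamus, such as Avp and Oxt with means of 172 and 268 CPM, and every marker listed had reads in every mouse. Of the 6 neuronal and 8 anterior hypothalamic markers 0 passed in the rhythm difference (limma, adjusted p-value under 0.05), with 1 and 0 at an unadjusted p-value under 0.05. Of the oligodendrocyte markers 2 of 5 passed (Mog and Mag, limma adjusted p = 0.0383 and 0.0322), with NRF peaks at ZT10.1 and ZT9.83 and the summed group means of the list between 4408 and 5388 CPM in DRF and between 4897 and 6620 CPM in NRF. One marker each passed among 5 of astrocytes (Aldh1l1), 2 of oligodendrocyte precursors (Pdgfra), 4 of microglia (P2ry12) and 4 of endothelial cells (Flt1). Of 3 ependymal and 3 choroid plexus markers 0 passed, with 0 at an unadjusted p-value under 0.05 (limma), and the choroid plexus list summed to group means of 10.1 to 16.5 CPM. The part of cell makeup in the rhythms of H1f0 and H1f2 was not tested.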

How the data were processed

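Anterior hypothalamus RNA, selected by poly(A) tail, was sequenced in paired ends. Per the paper's methods, the authors cleaned reads with SOAPnuke, aligned them with HISAT2 (GRCm38.p6) and Bowtie2, counted with RSEM, scaled by edgeR's trimmed mean of M-values (TMM), and converted the counts to TPM. The deposited values, taken here as a score, are compressed: they equal log2(TMM-scaled CPM + 1) divided by gene length and rescaled to 999333 to 999720 per mouse. Undoing this (median relative deviation 2.02e-08) gave log2(CPM + 1) for 17309 genes. For 14084, counts came out whole (tolerance 0.02) at the annotated length, and for 2487 they did not, so their CPM are less certain.

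The filter kept a transcript if 80% of mice or more reached a value of 1. Limma 3.58.1 (R 4.3.3) with a mean-variance trend tested the 16063 with log2(CPM + 1), two-sided, with Benjamini-Hochberg adjustment and a threshold of 0.05. It used 14 group means for levels and 24-h cosine and sine terms per regimen for rhythms. JTK_CYCLE and Lomb-Scargle (periods of 20 to 28 h) were written in Python 3.11.15, combined by Fisher's method and run on the deposited score of 16245 transcripts, after MetaCycle. The labels name no batch. The p-values measure the spread between mice. Scripts were tested on simulated data.

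Members and gene lists were chosen with earlier results of these data known. Named genes are the members, the other linker histones, up to 4 genes per list that passed in the rhythm difference (otherwise the pair with the highest level), and the 5 most like H1f0 and H1f2; markers that passed, and Slbp, Mki67, Top2a, Avp and Oxt, were named after their values were seen. Alternatives left out replicate numbers, time points or libraries, or changed the block, scale, pseudocount, filter or library trends.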

Additional observations from a re-analysis of the deposited data

Results flagged for a closer look

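The rhythm of H1f2 differed between DRF and NRF by the test of the difference itself, with an adjusted p-value of 6.13e-07 in limma. Among the 42 groups of 4 mice of the 3 genes, a single mouse stood far from the other three in 2, both for H1f4, where chance gives about 1 in 20. In DRF at ZT20, mouse 2 had 1.47 CPM of H1f4 against 0.547 to 0.663 CPM in the others (a gap of 0.844 of the range). In NRF at ZT24, mouse 3 had 0.301 CPM against 0.507 to 0.528 CPM (a gap of 0.912).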

How the results depend on the processing

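The rhythm difference of H1f2 passed in 12 of 12 alternatives and that of H1f4 in 0 of 12. No level difference and no ZT24 minus ZT0 difference of the 3 genes passed in any alternative. Signs turned only in differences that did not pass: H1f0 over the day without ZT24 (-0.0324), H1f4 over the day on the deposited scale (-0.0461), without ZT16 (-0.0254), without ZT24 (-0.0278) and without the DRF mice numbered 3 and 4 at ZT16 (-0.00151), and, leaving out 1 replicate number, H1f4 over the day (-0.0310 to 0.0266) and H1f2 at ZT24 against ZT0 in DRF (-0.10 to 0.18). The H1f0 difference was 0.0724 on the compressed deposited scale. The DRF rhythm of H1f2 was lost with Lomb-Scargle alone (adjusted p = 1), without ZT24 (0.0502) and in 3 of 4 cases without a replicate (0.0419 to 0.275), and its NRF rhythm with Lomb-Scargle alone (0.0560); H1f4 in DRF was called by the limma cosine (0.0302, and 0.0384 with the replicate block), a call lost in 7 of its 12 alternatives (0.0550 to 0.265). H1f2 was called at 0 to 2 time points without 1 replicate number.

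Counts over all transcripts moved more. Without 1 replicate number, 400 to 2328 were called for the level, 418 to 1577 for the rhythm difference, 0 to 106 (DRF) and 0 to 1 (NRF) for ZT24 against ZT0, and 26 to 35 (DRF) and 2169 to 3349 (NRF) as rhythmic. ZT24 against ZT0 gave 30 in DRF on the deposited scale, and 298 (DRF) and 62 (NRF) with library trends removed, and the rhythm difference gave 2763 with trends removed and 1167 without ZT24. The rhythmic count was 61 in DRF with JTK_CYCLE alone, 0 in both regimens with Lomb-Scargle alone (218 and 3318 at an unadjusted p-value under 0.05), 52 and 2964 without ZT24, and 644 in DRF with the limma cosine (639 with the replicate block). Causes were not tested.

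Mice that share a replicate number did not deviate together (median correlation 0.00700 over 364 pairs of libraries, from -0.523 to 0.517; 13 of 56 mice correlated best with their own number), so the numbers do not pair the mice. With the replicate block the level difference of H1f2 was 0.13 and its rhythm difference 0.57, and no call of the 3 genes changed. Depth limits H1f4, with a median of 15 reads.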

Other observations

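Mice above their group in H1f0 tended to be above it in H1f2 as well. Each mouse was compared with the mean of its own regimen and time point, which removes the rhythm, and the deviations of the 2 genes had a Pearson r of 0.577 over 56 mice (permutation within groups, p = 3.0e-04, adjusted over 3 relations 9.0e-04) and a Spearman rho of 0.520 (permutation p = 5.0e-04, adjusted 0.0015). Without the 2 mice farthest from the median in H1f0, r was 0.508. It was 0.631 among the 28 DRF mice and 0.485 among the 28 NRF mice. Of 16062 other transcripts, 61 (0.380%) had an r with H1f0 at least as high as that of H1f2. The r was 0.606 with library trends removed and 0.544 without the DRF mice numbered 3 and 4 at ZT16. H1f4 deviated less clearly with H1f0 (r = 0.286, rho = 0.291, permutation p = 0.0753 and 0.0601) and with H1f2 (r = 0.308, rho = 0.236, permutation p = 0.0819 and 0.126), and the former r was 0.569 in DRF and -0.172 in NRF. With library trends removed, the r of H1f4 with H1f0 was 0.372 (permutation p = 0.0324, adjusted 0.0485), and 0.211 without the 2 mice farthest from the median in H1f0. These relations were computed after the values were seen.

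Spdef, an ETS-family transcription factor, was the lowest expressed of the transcripts most like H1f0, with a fitted mean of 0.82 in NRF on the log2(CPM + 1) scale, and Actb the highest with 9.43. Their NRF peaks were at ZT7.66 and ZT7.65.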
